A study of Mus musculus with 20 samples.

Results

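The nuclear-encoded subunits of the oxidative phosphorylation machinery were followed in pools of mouse blastocysts after embryo biopsy or the exposures that go with it. Members were the genes whose platform symbol begins with Ndufa, Ndufb, Ndufc, Ndufs, Ndufv, Uqcr, Cox4, Cox5, Cox6, Cox7, Cox8 or Atp5, or is Sdha, Sdhb, Sdhc, Sdhd or Cyc1, with the Ndufaf assembly factors left out. The rule gave 83 genes with 170 probe sets, out of 18194 genes with a probe set of a single symbol, and each gene was represented by its probe set with the highest mean over the 20 arrays. Of these, 36 belonged to complex I by their symbol, 4 to complex II, 9 to complex III, 17 to complex IV and 17 to complex V. By symbol, Ndufa4 was counted in complex I, though an alternative run placed it in complex IV. Cox7a2l, which is no subunit, was counted in complex IV. A further 10 probe sets listed several symbols and were not used, and Ndufs6 and Ndufa11 had no other probe set. Of the 83 genes, 81 were called Present on at least 3 of the 20 arrays and entered the tests. Cox8b and Ndufa4l2 did not.

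All embryos were of the CF1 strain and were handled at the 8-cell stage. Biopsy embryos lost 1 blastomere, taken through a hole made in the zona pellucida with acid Tyrode's solution after incubation in calcium- and magnesium-free medium. CMF embryos went through that medium alone, acid embryos met the acid solution alone, and CMF_acid embryos met both without losing a cell. Untreated embryos had none of these steps. Each group had 4 pools of 20 embryos, numbered 2 to 5 in every group, and all 400 embryos were collected at 96 h after hCG. The labels list the sex as female for 19 of the 20 pools. A pool averages 20 embryos and all their cells, so that in these bulk samples fewer cells of a type and less RNA per cell cannot be told apart.

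Oxidative phosphorylation takes electrons from NADH at complex I and from succinate at complex II, passes them through ubiquinone to complex III and through cytochrome c to complex IV, where oxygen is reduced. Complexes I, III and IV pump protons across the inner mitochondrial membrane, and complex V uses the gradient to make ATP. The subunits come from the nuclear genome and, apart from complex II, also from mitochondrial DNA, whose genes were not measured here. Cleavage-stage mouse embryos depend on pyruvate oxidation in their mitochondria, and glucose use and oxygen consumption go up as the blastocyst forms and its trophectoderm pumps fluid.

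The values were deposited GC-RMA intensities, taken to log2, and differences are on that log2 scale. Present calls covered 44.3% to 50.9% of the probe sets per array. CMF_acid replicate 5 stood apart: its mean correlation with the other arrays was 0.985, its actin 3 prime to 5 prime ratio was 4.22, and its median log2 intensity over tested probe sets was 7.55. All 6 inner cell mass markers and 5 of 6 trophectoderm markers were Present on every array. In biopsy against untreated, 4 of 6 markers were lower in each of these lists, with medians of -0.02 in both. At an unadjusted limma p under 0.05 stood 1 inner cell mass marker, lower in biopsy, and 0 trophectoderm markers, against 2.09% of all probe sets. Against CMF_acid, 1 inner cell mass marker was also lower in biopsy at that p and 0 trophectoderm markers were, against 7.36% of all probe sets. All 5 tested primitive endoderm markers had lower means in biopsy and in CMF_acid than in untreated, with median differences of -0.20 in both, and 0 had an unadjusted p under 0.05. Without CMF_acid replicate 5 the second median was -0.05. The list's median deviation ran from -0.15 to 0.01 in biopsy pools and from -0.78 to 0.11 in CMF_acid pools, against -0.16 to 0.67 in untreated pools, and its part in the members' values was not tested. Of 5 measured cumulus cell markers 2 passed the detection filter, Amhr2 and Foxl2.

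Most of the machinery was detected in every pool. Of the 83 genes, 75 were Present on all 20 arrays, or 92.6% of the 81 tested, against 73.9% of the 12025 tested genes. Every tested subunit of complexes II, III and V was Present throughout, and in complex I 34 of 35 were. The exception there was Ndufb4, an accessory subunit, Present on 12 arrays at a mean log2 intensity of 1.91, while its brighter probe sets also match copies of the gene and were not used. Mean intensities over the 20 arrays spanned 10.42 to 13.15 within complex II, 11.97 to 15.97 within complex III and 10.96 to 15.49 within complex V. These levels also hold how well each probe set binds, so the genes are not ranked by them.

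Complex IV held most of the dim members, and these were isoforms known from particular adult tissues. Cox4i1, Cox6a1, Cox6b1, Cox7a2 and Cox8a, the forms found in most tissues, were each Present on all 20 arrays, with means of 14.48, 15.97, 15.68, 14.90 and 11.35. Cox8b, a heart and muscle form, was Present on 0 arrays. Cox6a2, also of heart and muscle, was Present on 15 arrays at a mean of 2.16, and Cox4i2, known from lung and from low oxygen, on 7 arrays at 2.14. Cox6b2, Cox7b2 and Cox8c, known from testis, were Present on 10, 4 and 19 arrays at means of 2.55, 2.40 and 1.58, close to the floor of the GC-RMA scale. Ndufa4l2, which is induced by low oxygen, was Present on 0 arrays, while Ndufa4 was Present on all 20 at 12.22.

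Cox7a1, the heart and muscle partner of Cox7a2, was the exception among tissue forms. It was Present on all 20 arrays at a mean of 7.45, with 7.67, 7.54, 7.36 and 7.06 in biopsy pools 2 to 5, 7.41, 6.99, 7.51 and 6.86 in CMF pools, 7.34, 6.86, 7.54 and 7.22 in acid pools, 7.20, 7.95, 7.77 and 8.69 in CMF_acid pools, and 7.40, 7.76, 7.39 and 7.38 in untreated pools. The highest value was that of CMF_acid replicate 5, and all groups overlapped. The genes for the c subunit of ATP synthase, Atp5g1, Atp5g2 and Atp5g3, which encode the same mature protein behind different import signals, were each Present on all 20 arrays.

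Promoter windows of these genes are given as a description of their sequence, since no readout of promoters was taken, and no value here ties a motif to the members' levels. RefSeq promoter windows on GRCm38.p6, 250 bases before to 50 bases after each start, were found for 67 of the 83 genes, giving 72 windows. Both strands were searched for the nuclear respiratory factor 1 motif (marked in the Sdhd and Cox6a1 sequences), the ETS motif CCGGAAG, the YY1 motif AAGATGGC, the Sp1 motif GGGCGG, the box CCAAT and the TATA box TATAAA. The letters of nuclear respiratory factor 1 were in 22.2% of the members' windows, against 9.84% of windows of tested genes and 4.6% of all 32851 windows. Those of ETS were in 23.6%, against 16.9% and 8.86%, and those of YY1 in 12.5%, against 4.27% and 2.75%. Those of Sp1 were in 41.7%, against 60.8% and 35.7%, CCAAT in 40.3%, against 37.8% and 37.4%, and TATAAA in 12.5%, against 7.51% and 13.6%. A match describes letters in a window and is no evidence of binding.

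The 120 bases before the start of 4 genes are shown as examples with 1 or more of these motifs. Of 10 such stretches read, 3 held none of them, those of Cox7c, Uqcrfs1 and Atp5o. Sdhb and Sdhd are subunits of complex II, and Cox6a1 and Cox7a1 are a widely expressed and a muscle isoform of complex IV. Capitals mark motif matches on either strand, and no matches overlap in these stretches. The stretches lie at chr4:140961151-140961270 on the plus strand (Sdhb), chr9:50603850-50603969 on the minus strand (Sdhd), chr5:115348959-115349078 on the minus strand (Cox6a1) and chr7:30184051-30184170 on the plus strand (Cox7a1).
Sdhb: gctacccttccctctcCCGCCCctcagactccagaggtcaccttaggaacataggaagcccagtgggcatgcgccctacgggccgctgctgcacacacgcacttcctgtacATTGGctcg
Sdhd: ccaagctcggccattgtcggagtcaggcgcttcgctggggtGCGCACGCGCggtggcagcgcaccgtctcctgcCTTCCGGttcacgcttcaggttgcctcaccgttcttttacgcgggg
Cox6a1: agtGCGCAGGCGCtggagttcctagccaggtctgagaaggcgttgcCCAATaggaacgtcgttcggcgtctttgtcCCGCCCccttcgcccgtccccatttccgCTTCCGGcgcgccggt
Cox7a1: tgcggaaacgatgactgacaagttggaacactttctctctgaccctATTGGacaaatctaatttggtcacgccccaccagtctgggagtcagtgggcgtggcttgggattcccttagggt
The Cox6a1 stretch holds the letters of nuclear respiratory factor 1, CCAAT, Sp1 and ETS in 5 prime to 3 prime order, and the Sdhd stretch those of nuclear respiratory factor 1 and ETS. The Sdhb stretch holds Sp1 and CCAAT matches, and in the Cox7a1 stretch CCAAT is the motif found.

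Pools of a group differed little in these genes. The SD of a gene's residuals from its group means had a median of 0.139 over the 81 tested members, against 0.199 over all tested genes. Bright genes vary less on these arrays: within the middle 50% of member intensities the medians were 0.146 for 41 members and 0.160 for 1573 tested genes. Within complexes, the largest residual SDs were 0.349 for Ndufa6, an accessory subunit of complex I, 0.413 for the membrane anchor Sdhd, 0.265 for Uqcrfs1, the Rieske iron-sulfur protein of complex III, 0.610 for the dim Cox6b2, and 0.385 for Atp5l, subunit g of ATP synthase. For 4 of these the spread rested largely on CMF_acid replicate 5, described further on: without it the SD was 0.254 for Ndufa6, 0.187 for Sdhd, 0.105 for Uqcrfs1 and 0.267 for Atp5l, while Cox6b2 had 0.628. The median over the members was 0.117 without that array.

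**Figure D1:**
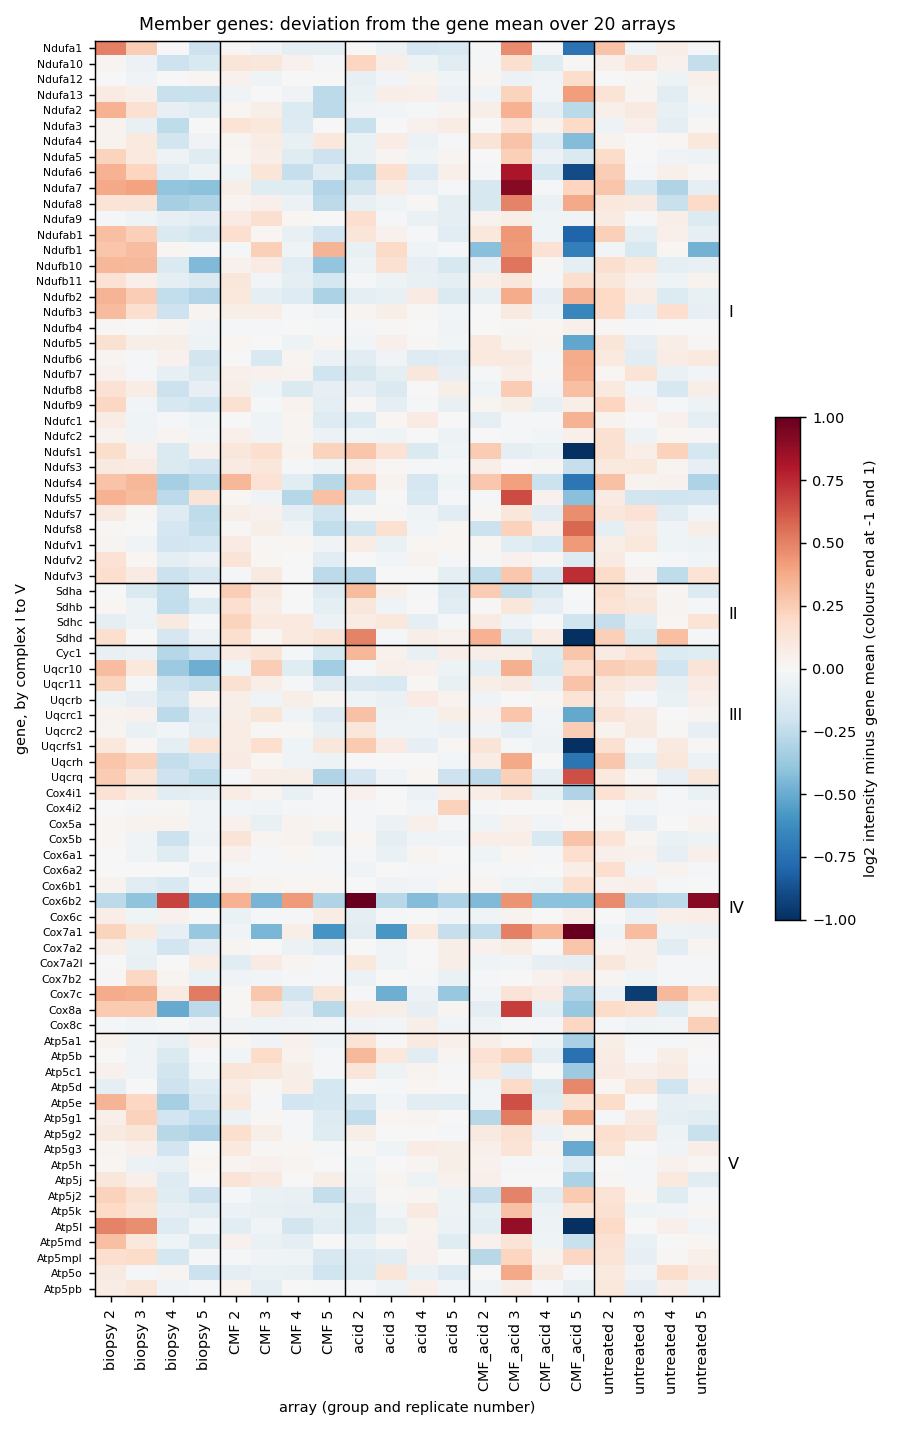
Log2 intensity of each of the 81 tested members minus its mean over the 20 arrays, with genes in rows by complex I to V and arrays in columns by group and replicate number; red is above and blue below the gene's mean, and colours end at -1 and 1. Biopsy replicates 4 and 5 are mostly blue, CMF_acid replicate 3 is mostly red, and CMF_acid replicate 5 holds both strong blue and strong red cells.

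Members tended to deviate together from pool to pool. The median over the tested members of the deviation from each gene's mean was 0.09, 0.04, -0.14 and -0.09 in biopsy pools 2 to 5, so that biopsy pools 2 and 3 were high and pools 4 and 5 low. Over the 5 pools of a number, the biopsy pool included, the mean of this median was 0.04 for number 2, 0.03 for 3, -0.04 for 4 and -0.03 for 5. Single pools ran from -0.02 to 0.10 for number 2, -0.0065 to 0.12 for 3, -0.14 to -0.0061 for 4 and -0.09 to 0.04 for 5. The labels do not say what pools of a number share. In biopsy pool 2, 71 of the 81 genes were above their mean, and in biopsy pool 5, 69 were below. CMF pools ran from -0.08 to 0.04, acid pools from -0.026 to -0.0061, CMF_acid pools from -0.03 to 0.12 and untreated pools from -0.01 to 0.10. All 5 groups overlapped. The biopsy group had the widest spread of this median, an SD of 0.109, against 0.0098 in the acid group and 0.0546 in the untreated group (n = 4 each).

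After group means were removed, the Pearson correlation between pairs of members over the 20 arrays had a median of 0.22 across 3240 pairs, and 0.28 without CMF_acid replicate 5. Among 635 genes taken as every 14th of those Present on all arrays the median was 0.03. By complex it was 0.36 for I, 0.22 for II, 0.19 for III, 0.09 for IV and 0.42 for V. These pairs share arrays, amplification and normalization, and the values are descriptions over genes that are not independent.

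**Figure D2:**
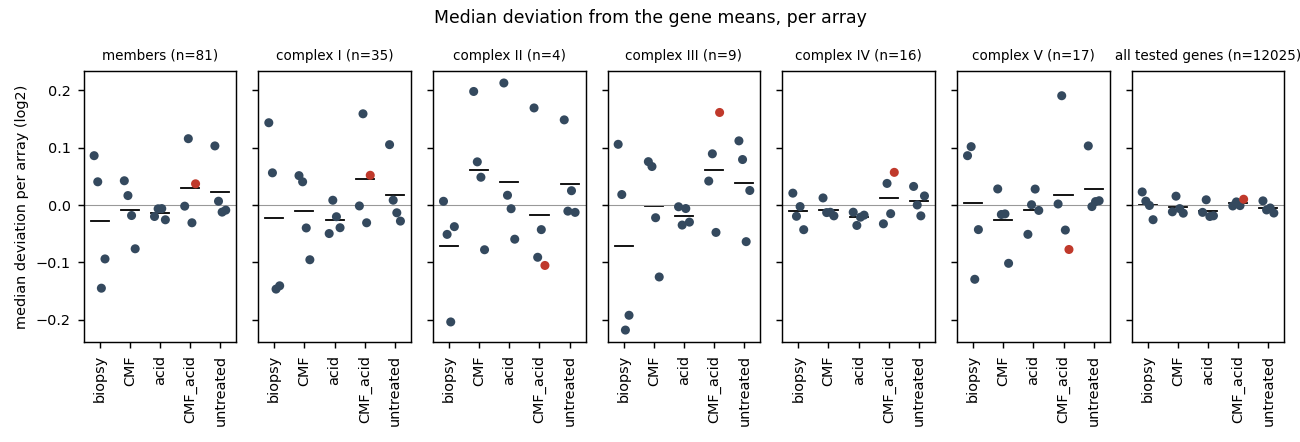
Median deviation from the gene means (log2) per array, for the tested members, each complex and all tested genes, with a point per pool, a black bar at each group mean and CMF_acid replicate 5 in red. Biopsy pools lie from -0.14 to 0.09 for the members, on both sides of the acid pools and below untreated replicate 2 at 0.10, while all tested genes stay between -0.03 and 0.02.

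Embryo biopsy left no tested member called at the blastocyst stage. Compared with untreated pools, 0 of 81 tested members and 0 of 25553 probe sets (0%) had an adjusted p under 0.05 in limma with Benjamini-Hochberg adjustment over all probe sets. At an unadjusted p under 0.05 stood 2 members, Sdhb and Cox7c, against 2.09% of all probe sets. The differences were small: 77 of 81 lay within 0.25 of 0 on the log2 scale, and the 95% intervals of 69 lay within 0.5 and of 80 within 1. Lower in biopsy were 56 members and higher 25, with a median of -0.04, against a median of 0.01 and 40.9% lower over all tested genes. Both shares moved with the scaling. With the software signal 63 members (77.8%) and 53.9% of all tested probe sets were lower, and with centred arrays 73 members (90.1%) and 64.1%. With quantile normalization 53 members (65.4%) and 49.5% were lower, against 69.1% of members and 41.5% of probe sets as deposited. In complex V 16 of 17 members were lower with centred arrays. The count of lower members was 43 without biopsy replicate 4, where the median was -0.004, and 71 without biopsy replicate 2. Nothing says that the pools of a group came from separate matings or days, so the p-values measure the spread between these pools, which may be technical.

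Complex II, which links the citrate cycle to the respiratory chain, held the member with the lowest p. Sdhb, its iron-sulfur subunit, stood at 13.17, 13.10, 12.90 and 13.01 in biopsy pools 2 to 5, against 13.29, 13.26, 13.17 and 13.14 in untreated pools. Biopsy pools 3, 4 and 5 were below every untreated pool, and biopsy pool 2 overlapped. The difference was -0.17 ± 0.07 (SE, 95% interval -0.32 to -0.03; limma adjusted p = 0.99999), and over the 20 sets leaving out 1 array it ran from -0.21 to -0.12. Sdha, the flavoprotein that binds succinate, differed by -0.14 ± 0.11 and the membrane anchors Sdhd and Sdhc by -0.11 ± 0.28 and 0.03 ± 0.08, with both groups overlapping in all 3. Of their other tested probe sets, those of Sdha were at 0.00091 and, for a dim one with a mean of 2.70, at 0.30. That of Sdhd was at 0.01 and that of Sdhc at -0.23.

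In complex III, which passes electrons from ubiquinol to cytochrome c, all 9 members were lower in biopsy, with a median of -0.08, and none at an unadjusted p under 0.05. The 9 were also lower with the software signal, centred arrays or quantile normalization, and 6 were without biopsy replicate 4. When a gene's probe sets were averaged 7 of 9 were lower, and Uqcrb turned to 0.0082. Of the other tested probe sets, those of Uqcrb, Uqcrh and Uqcrq were higher in biopsy, at 0.10, 0.02, and 0.02 and 0.04, those of Uqcr10 were at 0.04 and -0.12, and that of Uqcrc2 at -0.14. Cyc1, the haem subunit cytochrome c1, stood at 13.98, 14.00, 13.77 and 13.85 in biopsy pools, against 14.14, 14.20, 13.92 and 13.94 in untreated pools. The groups overlapped. Cyc1 differed by -0.15 ± 0.10 (95% interval -0.37 to 0.07), the small subunit Uqcr10 by -0.21 ± 0.17, the core subunit Uqcrc1 by -0.13 ± 0.13 and Uqcrb, a small subunit by the ubiquinone site, by -0.08 ± 0.05.

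Complex I, the NADH dehydrogenase, had 24 of 35 members lower, with a median of -0.01, and complex V 9 of 17 lower, with a median of -0.0045. In complex I the iron-sulfur core subunits Ndufs7 and Ndufs8 both differed by -0.10, with SEs of 0.11 and 0.13, and the flavin-binding core subunit Ndufv1 by -0.11 ± 0.09. Another core subunit, Ndufv2, differed by -0.0093. The highest differences were those of the small accessory subunits Ndufb1, at 0.30 ± 0.19, and Ndufs5, at 0.26 ± 0.18. Atp5b, the catalytic beta subunit of complex V, stood at 14.64, 14.60, 14.49 and 14.62 in biopsy pools, against 14.71, 14.64, 14.69 and 14.65 in untreated pools. It was the member whose groups did not overlap, by a gap under 0.01, which held for 0.43% of all probe sets in the lower direction, and its difference was -0.08 ± 0.15. Atp5l, the subunit g that joins ATP synthase dimers, differed by 0.15 ± 0.26.

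In complex IV, cytochrome c oxidase, 11 of 16 members were lower, with a median of -0.06. Cox7c, a small subunit, stood at 8.84, 8.82, 8.56 and 8.99 in biopsy pools, against 8.41, 7.52, 8.79 and 8.66 in untreated pools. The groups overlapped and untreated pool 3 was far below the others. Cox7c differed by 0.46 ± 0.21 (95% interval 0.01 to 0.91; limma adjusted p = 0.99999), and without untreated replicate 3 by 0.18. Cox6b1, a subunit on the side of the membrane that binds cytochrome c, differed by -0.08 ± 0.05 and Cox8a by -0.12 ± 0.20. Cox6b2 lay between 2.07 and 3.46 in these groups, Present in 2 biopsy and 4 untreated pools, too near the floor for its difference to be read.

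**Figure D3:**
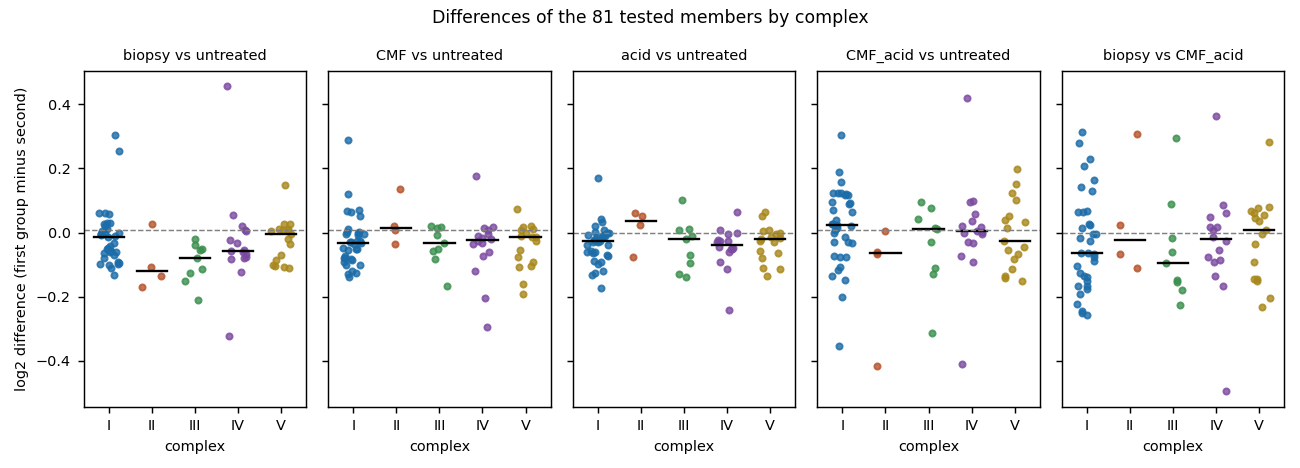
Log2 differences of the 81 tested members in 5 comparisons, first group minus second, as points by complex I to V, with black bars at the medians and a dashed line at the median of all tested genes. In biopsy against untreated the 9 points of complex III lie from -0.21 to -0.02 and Cox7c stands at 0.46.

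Calcium- and magnesium-free medium, which loosens contacts between blastomeres, left no tested member called either. Against untreated, 0 of 81 members and 0 of 25553 probe sets (0%) were called by limma, and 1 member, Atp5o, had an unadjusted p under 0.05, against 1.01% of all probe sets. Lower in CMF were 57 members and higher 24, with a median of -0.03, against 50.2% of all probe sets lower as deposited. The shares moved with the scaling. With centred arrays 72 members and 63.8% of all probe sets were lower. With the software signal 49 members and 53.5% of all probe sets were lower, with a member median of -0.02. With quantile normalization 60 members were lower. The count of lower members was 42 without CMF replicate 5. Atp5o, the stalk subunit that holds the catalytic head of ATP synthase, stood at 13.70, 13.73, 13.72 and 13.59 in CMF pools, against 13.89, 13.76, 13.97 and 13.87 in untreated pools. All CMF pools lay below all untreated pools, and the difference was -0.19 ± 0.09 (95% interval -0.38 to -0.01; limma adjusted p = 0.99997). The dimer subunits Atp5k and Atp5l also had groups that did not overlap. Atp5k was at 14.60 to 14.64 in CMF, against 14.66 to 14.86 in untreated, and Atp5l at 10.78 to 10.93, against 10.93 to 11.15 with a gap under 0.01. Atp5k differed by -0.11 ± 0.09. Groups that did not overlap in the lower direction made up 0.947% of all probe sets. The membrane anchor Sdhc was at 0.14 ± 0.08 and Ndufb1 at 0.29 ± 0.19.

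Exposure to acid Tyrode's solution, which opens the zona pellucida, left no tested member called. Against untreated, 0 of 81 members and 0 of 25553 probe sets (0%) were called, and 0 members had an unadjusted p under 0.05, against 1.16% of all probe sets. Every tested member differed by less than 0.25, and the 95% intervals of 73 lay within 0.5 and of all 81 within 1. Lower in acid were 63 members and higher 18, with a median of -0.03 (72 and 62.3% of all probe sets with centred arrays, against 52.0% as deposited), and 47 were lower without untreated replicate 2, whose member median of 0.10 was the highest of its group. Ndufb6, a membrane-arm subunit of complex I, stood at 14.54, 14.61, 14.52 and 14.54 in acid pools, against 14.74, 14.54, 14.72 and 14.74 in untreated pools, and untreated pool 3 alone overlapped. It differed by -0.13 ± 0.08 (95% interval -0.29 to 0.03) and Atp5o by -0.13 ± 0.09. Residuals of a second Ndufb6 probe set, Present on all 20 arrays, correlated at -0.43 with those of the chosen probe set. Among members higher in acid, Cyc1 differed by 0.10 ± 0.10 and Atp5a1, the alpha subunit of the catalytic head, by 0.06 ± 0.06.

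The exposures together left no tested member called, and a single array set much of the spread. Between CMF_acid and untreated, 0 of 81 members and 0 of 25553 probe sets (0%) were called, and 0 members had an unadjusted p under 0.05, against 2.67% of all probe sets. Lower in CMF_acid were 37 members and higher 44, with a median of 0.01 (26 and 37.3% of all probe sets lower with centred arrays, against 46.1% as deposited). Uqcrfs1 stood at 13.87, 13.72, 13.69 and 12.66 in CMF_acid pools, against 13.89, 13.72, 13.83 and 13.75 in untreated pools, and CMF_acid pool 5 was far below the other 7 pools. It differed by -0.31 ± 0.18, and by -0.04 ± 0.08 without that pool. Cox7a1 differed by 0.42 ± 0.25, and by 0.16 ± 0.21 without it. Cox7a2l, a factor that joins complexes III and IV in supercomplexes and is no subunit, was at 13.27, 13.29, 13.23 and 13.22 in CMF_acid pools, against 13.42, 13.36, 13.30 and 13.29 in untreated pools. It was the member whose groups did not overlap, against 0.239% of all probe sets in that direction, and differed by -0.09 ± 0.05 (limma adjusted p = 0.834).

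CMF_acid replicate 5 was the lowest of the 20 arrays for 26 members and the highest for 23, together 60.5%, while 56.2% of all tested genes were extreme there. In complex V 8 members were below the other 19 arrays and 1 was above, and in complex IV 5 were above and 1 below. In complex I 13 were above and 13 below. Sdhd was at 8.85 there, a difference of -1.65 from the mean of the other 19, and the core subunit Ndufs1 at 11.63, a difference of -1.29. Cox7a1 was 1.31 above, at 8.69, the complex I flavoprotein subunit Ndufv3 0.77 above, the complex III subunit Uqcrq 0.68 above and the core subunit Ndufs8 0.61 above. These values and counts are those of the chosen probe sets. Residuals of a second Sdhd probe set, Present on all 20 arrays, correlated at 0.10 with those of the chosen one. In biopsy against CMF_acid the second was at -0.09 and the chosen one at 0.31. Over the members' 73 other tested probe sets such correlations ran from -0.52 to 0.98, with a median of 0.59. On CMF_acid replicate 5, 2 of 6 inner cell mass markers were above their mean over the 20 arrays and 4 below, with a median deviation of -0.03. All 6 trophectoderm markers and all 5 tested primitive endoderm markers were below, with medians of -0.33 and -0.78. The actin ratio of 4.22 was the highest of the 20 arrays, while the GAPDH 3 prime to 5 prime ratio of 3.99 lay within the 3.08 to 4.30 of the other arrays. The part of RNA quality and of cell makeup in these values was not tested.

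**Figure D4:**
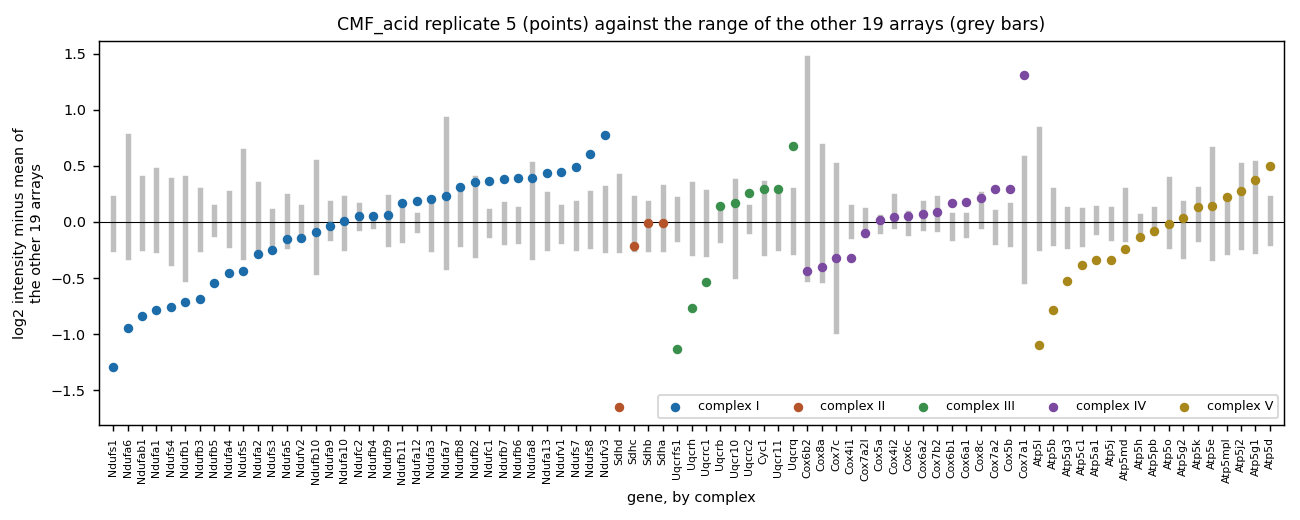
Log2 intensity on CMF_acid replicate 5 (points, coloured by complex) and the range of the other 19 arrays (grey bars), both minus the mean of those 19 arrays, for each of the 81 tested members. Sdhd at -1.65 and Ndufs1 at -1.29 lie far below their bars and Cox7a1 at 1.31 far above.

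Removal of the blastomere itself is the step that separates biopsy from CMF_acid. No tested member was called, with 0 of 25553 probe sets (0%) past the threshold and a lowest adjusted p of 0.617 among members in limma. At an unadjusted p under 0.05 were 6 members, all lower in biopsy, against 7.36% of all probe sets and 2.6% in the lower direction. They were the oxidase subunit Cox7a2, Cyc1, the complex I accessory subunits Ndufa13, Ndufb6 and Ndufa3, and Atp5d, the delta subunit of ATP synthase. Lower in biopsy were 48 members and higher 33, with a median of -0.03, against 50.5% lower over all tested genes. With the software signal 63 members and 58.5% of all probe sets were lower, and with centred arrays 68 members and 65.9%. When a gene's probe sets were averaged 44 members were lower and 37 higher, with a median of -0.0041. Without CMF_acid replicate 5, 61 were lower, with a median of -0.05, and without CMF_acid replicate 3, 40 were.

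Cox7a2 stood at 14.97, 14.83, 14.71 and 14.82 in biopsy pools, against 14.94, 14.98, 14.90 and 15.18 in CMF_acid pools. Biopsy pool 2 overlapped with CMF_acid pools, and CMF_acid pool 5 was the highest of all. The difference was -0.17 ± 0.06 (95% interval -0.30 to -0.03; limma adjusted p = 0.617), and -0.11 ± 0.06 without CMF_acid replicate 5. Atp5d stood at 13.49, 13.59, 13.39 and 13.46 in biopsy pools, against 13.55, 13.78, 13.45 and 14.07 in CMF_acid pools. These groups overlapped too, and Atp5d differed by -0.23 ± 0.11, and by -0.11 ± 0.08 without that array. Cyc1 differed by -0.23 ± 0.10, Ndufa13 by -0.22 ± 0.10 and Ndufb6 by -0.17 ± 0.08. Without CMF_acid replicate 5 these were -0.16 ± 0.10, -0.13 ± 0.09 and -0.09 ± 0.06, and 0 of the 81 members had an unadjusted p under 0.05. The second Ndufb6 probe set was higher in biopsy, at 0.08, while those of Cox7a2 and Atp5d were at -0.23 and -0.16. Among members higher in biopsy, Cox7c differed by 0.36 ± 0.21 and Ndufb3, an accessory subunit of complex I, by 0.23 ± 0.13. Without CMF_acid replicate 5 the differences of Cox7c and Ndufb3 were 0.27 ± 0.23 and 0.06 ± 0.10.

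The design crosses both exposures, and the interaction asks whether the effect of CMF_acid differs from the sum of its parts. No tested member was called, with 0 of 25553 probe sets (0%) past the threshold and a lowest adjusted p of 0.779 among members in limma. At an unadjusted p under 0.05 were 4 members, all positive, against 3.4% of all probe sets and 2.03% in the positive direction. Negative were 29 of 81 members, and 12 with centred arrays, where 35.4% of all probe sets were negative, against 51.1% as deposited. The 4 were Ndufb6, Ndufb11, Atp5o and Cox7a1. Ndufb6 had an interaction of 0.31 ± 0.11 (95% interval 0.09 to 0.54; limma adjusted p = 0.779), and its means were 14.78 ± 0.165 in CMF_acid, 14.60 ± 0.077 in CMF, 14.55 ± 0.0396 in acid and 14.68 ± 0.0997 in untreated (SD, n = 4 each). Both single exposures were below untreated and the combination above. On CMF_acid replicate 5 Ndufb6 stood at 15.02, above all other arrays, and without that array its interaction was 0.24 ± 0.09. Atp5o likewise had both single exposures below untreated, with means of 13.91 ± 0.184 in CMF_acid, 13.68 ± 0.0616 in CMF, 13.74 ± 0.118 in acid and 13.88 ± 0.087 in untreated. Its interaction was 0.36 ± 0.12, and 0.40 ± 0.12 without that array. Cox7a1 had an interaction of 0.96 ± 0.35, and 0.70 ± 0.29 without CMF_acid replicate 5. In a test of any difference among the 5 groups, 0 members had an unadjusted p under 0.05, against 1.81% of all probe sets.

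Genes that build, feed or regulate the chain gave no call in any comparison. Tested were 44 of 46 listed assembly factors, 16 of 18 electron carriers and donors, 15 of 16 regulators of mitochondrial biogenesis, 16 of 17 genes of pyruvate dehydrogenase and the citrate cycle and 6 of 8 genes for exchange of ATP, phosphate and protons. In biopsy against untreated their medians were 0.01, 0.015, -0.0020, 0.0094 and -0.04, with 0 genes at an unadjusted p under 0.05, and the lowest p among assembly factors belonged to Ndufaf7, at 0.23 ± 0.12, and Oxa1l, at -0.26 ± 0.13. In CMF_acid against untreated the citrate cycle list had a median of -0.13, with 11 of 16 lower, and the regulators one of -0.09, with 12 of 15 lower. On CMF_acid replicate 5 alone the median deviation of these lists was -0.55 and -0.26. Without that array these list medians were 0.0039, with 8 of 16 lower, and -0.03, with 10 of 15 lower. In biopsy against CMF_acid 4 of 44 assembly factors (9.09%) and 3 of 15 regulators were higher at an unadjusted p under 0.05, against 8.71% of all tested genes in either direction. Without CMF_acid replicate 5 these counts were 2 and 0, against 3.14%. Cox11, which delivers copper to cytochrome c oxidase, differed by 0.35 ± 0.13, and by 0.17 ± 0.08 without that array. The mitochondrial transcription factor Tfb2m differed by 0.22 ± 0.09, and by 0.21 ± 0.10 without it.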

How the data were processed

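RNA of 20 pools of blastocysts was amplified in repeated linear rounds, labelled with biotin and hybridised to 1-colour Affymetrix MOE430 2.0 arrays, per the labels' protocols and the series design text. The authors made the deposited intensity values of the series table with GC-RMA in ArrayAssist Lite 3.4, per the series design text. Each array also has a deposited table of its own: per the file headers, its columns are a software intensity, Present or Absent calls and their p-values. Which version of that software ran is not stated. The deposited intensities are linear, and log2 was taken here, as the authors did later per the series design text.

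Of 45101 probe sets, 25553 were tested: those Present on 3 or more arrays, the filter of the series design text, without 64 control probe sets. The platform annotation gave 34958 probe sets a single symbol, 932 several and 9211 none, and genes were named from single symbols alone. Sequences are RefSeq promoter windows of GRCm38.p6, matched by gene identifier.

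limma 3.58.1 in R 4.3.3 (lmFit, eBayes) fitted 5 group means to all 20 arrays. Tests were two-sided, with Benjamini-Hochberg adjustment over 25553 probe sets in each comparison and a threshold of 0.05. The fit was tested on simulated data. With 4 arrays per group, the number of arrays limits the precision. Errors of differences are limma's standard errors.

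Genes were named by a rule: any called member, the 5 members per direction with the lowest p in both biopsy comparisons and 3 in the others, the extremes of level and spread per complex, the succinate dehydrogenase subunits, isoform families and non-subunits. Other genes named were chosen after their values were seen. The members and lists were chosen with earlier results of these data known, so lists are described by counts and medians with no test. Alternatives were the software signal, other filters, the mean of a gene's probe sets, centring, quantile normalization, only the groups compared, ordinary least squares, the replicate number as a block, subunits only, and each array left out. Counts with each array left out, lists and residual SDs without CMF_acid replicate 5, and counts by complex with averaged probe sets were added after seeing the data.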

Additional observations from a re-analysis of the deposited data

Results flagged for a closer look

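In 24 of 240 sets of 4 pools, from 47 named genes and the array median of the members, the highest or lowest pool was far from the other 3. Chance alone marks about 1 in 20 such sets. The member median of untreated replicate 2 was 0.10, against -0.01 to 0.0068 in the other untreated pools.

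On CMF_acid replicate 5, Uqcrfs1 was at 12.66 (others 13.69 to 13.87), Ndufb5 at 13.78 (14.33 to 14.40), Atp5g3 at 14.77 (15.30 to 15.41), Uqcrc2 at 16.22 (15.88 to 15.94) and Cox8c at 1.79 (1.54 to 1.57). On CMF_acid replicate 3 the dim Cox6b2 was at 3.00 (2.11 to 2.14).

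On acid replicate 2, Sdhd was at 10.91 (others 10.40 to 10.47), Uqcrc2 at 16.09 (15.91 to 15.94), Atp5g1 at 13.40 (13.65 to 13.67) and Cox6b2 at 4.03 (2.12 to 2.28). Cox8c was at 1.64 on acid replicate 4 (1.54 to 1.55) and Cox4i2 at 2.37 on acid replicate 5 (2.12 to 2.14). In CMF, Cox6b1 was at 15.73 on replicate 2 (15.70 to 15.71), Cox5a at 15.92 on replicate 3 (16.03 to 16.04) and Ndufa13 at 12.75 on replicate 5 (12.97 to 13.01). Cox6a2 was at 2.10 on biopsy replicate 5 (2.15 to 2.16).

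Among untreated pools, Ndufs5 was at 10.62 on replicate 2 (others 10.34 to 10.36). On replicate 3, Ndufb6 was at 14.54 (14.72 to 14.74) and Cox7a1 at 7.76 (7.38 to 7.40). On replicate 4, Cox7a2 was at 14.79 (14.92 to 14.95), Uqcr11 at 11.89 (12.05 to 12.08) and Cox6a1 at 15.88 (16.01 to 16.02). Cox8c was at 1.82 on replicate 5 (1.54 to 1.56).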

How the results depend on the processing

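No tested member was called in any of the 7 tests under any alternative run, the 20 sets leaving out 1 array included, so the counts of called members were 0 to 0. The lowest adjusted p of a member under any alternative was 0.999 for biopsy, 0.990 for CMF, 0.973 for acid and 0.441 for CMF_acid, each against untreated, 0.291 for biopsy against CMF_acid, 0.213 for the interaction and 0.588 for any difference among groups.

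The median member difference stayed on its side of 0 under the other alternatives for every comparison except CMF_acid against untreated. That one was -0.0057 in the fit by mean of all probe sets per gene, against 0.01 as reported. For biopsy against CMF_acid it was -0.11 with the software signal and also -0.11 with centred arrays, and for the interaction 0.13 and 0.16. With the mean of all probe sets per gene it was -0.0041 for biopsy against CMF_acid and 0.03 for the interaction. Centring moved the median of all tested probe sets too, to -0.09 and 0.10 in these comparisons, against -0.0089 and -0.0067 as reported. With 1 array left out, the median ran from -0.08 to -0.0040 for biopsy (without biopsy replicate 2 and 4), from -0.05 to -0.0015 for CMF (without CMF replicate 2 and 5), from -0.04 to -0.0055 for acid (without untreated replicate 4 and 2) and from -0.02 to 0.03 for CMF_acid (without CMF_acid replicate 3 and untreated replicate 2), each against untreated. It ran from -0.05 to 0.0082 for biopsy against CMF_acid (without CMF_acid replicate 5 and 3) and from 0.02 to 0.08 for the interaction (without CMF_acid replicate 3 and acid replicate 4). Of 870 medians by complex under alternatives, 20 moved by more than the spread between pools, and of 1271 values of single named genes 2 changed sign: Uqcrb in biopsy, to 0.0082 with the mean of its probe sets, and Cox7b2 in biopsy, to -0.07 with the software signal. The cause was not tested.

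With the replicate number as a block, 0 members were called in every comparison, with a lowest adjusted p of 0.504 for biopsy against CMF_acid. With each number once in every group the block cannot move a difference of means. Between biopsy and untreated pools of the same number Cyc1 differed by -0.21 to -0.09 and Sdhb by -0.27 to -0.12, chosen after their values were seen, and both had an adjusted p of 0.99999 in limma with the block. The labels do not say what a number shares. Residuals of arrays with the same number had a median correlation of 0.20 over 40 pairs (-0.09 to 0.40). Pairs of other numbers from different groups had -0.07, but residuals sum to 0 within a group, so this value is tied to the first and adds no evidence. Among arrays of other groups, all 20 arrays correlated best with an array of their own number, a hint from the data and not from the design.

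Of the 81 members, 46 had other tested probe sets, 73 in all, and 41 of these had the sign of the chosen probe set's difference in biopsy against untreated. The 95% interval of a member in biopsy against untreated, which is not adjusted for the number of probe sets, reached 0.21 to either side in the median. This width describes precision and is no limit of detection, since Cox7c, at 0.46, was not called either. Dim isoforms near the floor have no readable differences on this scale.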

Other observations

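The arrays that most often held the lowest value of a tested member were, after CMF_acid replicate 5 with 26, biopsy replicate 4 with 15, biopsy replicate 5 with 14 and CMF replicate 5 with 10. CMF_acid replicate 3 held the highest value for 21 members and the lowest for 0, and acid replicate 2 the highest for 11 and the lowest for 5. Over all 12025 tested genes, CMF_acid replicate 5 held the lowest value for 3560, biopsy replicate 4 for 678, biopsy replicate 5 for 1076 and CMF replicate 5 for 549, and CMF_acid replicate 3 held the highest for 1002.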
